A study of Homo sapiens with 18 samples.

Results

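The 10 genes described here are effectors of the integrated stress response, taken from a named list and found by gene symbol: *PPP1R15A*, *PPP1R15B*, *ATF4*, *ATF3*, *DDIT3*, *TRIB3*, *CHAC1*, *DDIT4*, *SESN2* and *EIF2AK3*. All 10 were present among the 57500 genes of the count tables, and all 10 passed the filter on low counts in every comparison. RNA was sequenced from ES8, a Ewing sarcoma line, and Rh30, an alveolar rhabdomyosarcoma line, both carrying dCas9-KRAB for CRISPRi, in which an sgRNA leads a repressor to the start of a gene and silences it. Each line had 3 groups of 3 libraries (replicates A, B and C): parental cells with a control sgRNA (sgCTL), parental cells with an sgRNA against the co-chaperone gene *DNAJC17* (sgDNAJC17, called knockdown here), and cells with stable expression of 3xFLAG-tagged DNAJC17 lacking its RNA recognition motif (ΔRRM) that also received sgDNAJC17. All cells had been selected with puromycin for 72 hours after transduction. For the vector that carried the *DNAJC17* alleles the methods also give selection with hygromycin for 10 days, which applies to the ΔRRM cells only. The ΔRRM cells of a line were made and grown as their own stable population, and none of the libraries analysed here pairs ΔRRM with sgCTL. Differences due to the allele, the sgRNA, the hygromycin selection and that population therefore cannot be told apart. The methods describe cells plated in triplicate and do not say whether the triplicates were separate transductions, so p-values measure the spread between these libraries, which may be technical. The comparisons ask how the mRNA of each effector differed after knockdown, in ΔRRM cells and between the lines.

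The integrated stress response begins with kinases, among them PERK (encoded by *EIF2AK3*), that phosphorylate the translation initiation factor eIF2. General translation then falls, while the mRNA of *ATF4* is translated more, and ATF4 protein activates genes for amino acid supply, redox balance and, when stress persists, cell death. *PPP1R15A* (GADD34) and *PPP1R15B* (CReP) encode the regulatory subunits that bring protein phosphatase 1 to eIF2 and end the response. Phosphorylation and translation were not measured here. The counts report mRNA abundance, and in bulk RNA fewer cells of a type and less RNA per cell cannot be told apart.

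Library totals ran from 35342393 to 48245989 counts. *DNAJC17* itself held 11.2, 12.4 and 12.3 CPM (counts scaled by TMM to a common library total) in ES8 sgCTL, 1.56, 1.96 and 1.56 CPM after knockdown and 305, 283 and 312 CPM in ΔRRM cells, where reads of the transgene are included. In Rh30 these values were 11.7, 11.9 and 10.8 CPM, then 2.52, 2.20 and 2.72 CPM, then 368, 363 and 336 CPM. The sgCTL and knockdown libraries matched their labels, and the ΔRRM libraries matched theirs in carrying the transgene. Transgene reads hide the endogenous gene in ΔRRM libraries, so its knockdown could not be checked there. Some libraries stood apart from their group in a chi-square comparison of counts per degree of freedom: ES8 knockdown replicate A gave 27.5 and 31.5 against B and C, which gave 2.63 against each other, ES8 ΔRRM replicate B gave 31.8 and 20.5 against A and C, which gave 9.08, and Rh30 knockdown replicate A gave 15.97 and 28.7 against B and C, which gave 7.16. Of the 8 Ewing sarcoma markers, all were above 3 counts in ES8 and 5 were at 3 counts or fewer in Rh30.

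Markers of cell type moved with the groups. The 8 myogenic markers summed to between 3587 and 3707 CPM in Rh30 sgCTL libraries, between 3004 and 3267 CPM after knockdown and between 2327 and 2590 CPM in ΔRRM libraries, 3 ranges that did not overlap. Of the 7 tested in Rh30, 3 were lower after knockdown, 7 in ΔRRM cells against sgCTL and 6 in ΔRRM cells against knockdown, and none was higher. Over all genes tested, 16.2%, 35% and 30.5% were lower in these comparisons. In ES8 the same sum was between 92.9 and 95.3, between 63.5 and 78.7 and between 80.7 and 91.7 CPM in that order of groups. Most of that ES8 sum was 1 gene, *FGFR4*, at means of 92.4, 67.3 and 84.0 CPM. In ES8 sgCTL, 3 of the 8 genes were at 0 counts. A list of 10 epithelial genes, which neither culture should hold, summed to between 1.15 and 1.62 CPM in Rh30 sgCTL libraries. It summed to between 12.1 and 17.4 CPM after knockdown and between 13.3 and 15.4 CPM in Rh30 ΔRRM libraries. Most of the sum after Rh30 knockdown was *KRT8* (mean 9.52 CPM, 0.85 with sgCTL), *KRT18* (3.18, 0.25 with sgCTL) and *KRT19* (1.54, 0.11 with sgCTL). The other 7 genes together held 5 to 14 counts in Rh30 sgCTL libraries, with *RAB25* at 0. They held 31 to 42 counts after knockdown and 29 to 35 in ΔRRM libraries. In ES8 the sum of all 10 lay between 34.3 and 44.7 CPM in all groups, most of it *KRT18* and *KRT8*. The epithelial rise moves with the Rh30 results against sgCTL. Between Rh30 knockdown and ΔRRM cells 0 of the 3 epithelial genes tested (*KRT8*, *KRT18* and *KRT19*) were called (median log2 difference -0.06). Over all genes, 60% of 15309 tested were called there. The part of these markers in the results below was not tested.

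Because ATF factors bind known letters, the promoters of the 10 genes, 300 bases from 250 before to 50 after each RefSeq start on GRCh38.p14, were searched for elements of stress transcription factors. The 10 genes had 15 such windows, since some have several starts. The letters TGATGNAA are a form of the CEBP-ATF element that ATF4 and its CEBP partners bind. They were present on either strand in 3 of the 15 windows (3 of the 10 genes) and in 3.62% of all 35116 promoter windows. The palindrome TGACGTCA, the cyclic AMP response element that ATF and CREB factors bind, was present in 1 of the 15 windows (1 gene) and in 1.85% of all windows. TGACGTGG, the core of the unfolded protein response element of ATF6 and XBP1, was in none of the 10 genes and in 0.729% of all windows. The 4 matches are shown with their surroundings, each 5′ to 3′ on the strand of its gene, with the matched letters in capitals. A match says only that the letters are there, and binding was not measured. The first is *PPP1R15A*, on the plus strand at chr19:48872352-48872381, with its match 58 bases before the start.
PPP1R15A: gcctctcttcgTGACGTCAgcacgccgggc
*PPP1R15B*, on the minus strand at chr1:204412026-204412055, had its match 227 bases before the start.
PPP1R15B: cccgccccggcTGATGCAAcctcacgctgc
*ATF3*, on the plus strand at chr1:212565205-212565234, had its match 191 bases before the start.
ATF3: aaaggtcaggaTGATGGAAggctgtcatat
*CHAC1*, on the plus strand at chr15:40953251-40953280, had its match in the opposite orientation, 209 bases before the RefSeq start and inside the span that the count tables give to the gene.
CHAC1: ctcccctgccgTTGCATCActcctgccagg

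*ATF4* was the most abundant of the 10 mRNAs per length in both control cultures, at 124 ± 1.33 CPM per kilobase of exon (SD, n = 3) in ES8 and 95.4 ± 1.94 (SD, n = 3) in Rh30. *PPP1R15A*, *PPP1R15B*, *DDIT3*, *TRIB3*, *DDIT4* and *SESN2* lay between 5.56 and 32.4 CPM per kilobase (group means) in both lines. The lowest in ES8 were *EIF2AK3* at 1.505 ± 0.0117 and *ATF3* at 1.51 ± 0.0519 CPM per kilobase (SD, n = 3), and the lowest in Rh30 was *CHAC1* at 0.423 ± 0.125 (SD, n = 3), where its libraries held 29 to 51 counts. Between the control libraries of the lines, 5 of the 10 genes were higher in Rh30 and 4 were lower (edgeR quasi-likelihood test, Benjamini-Hochberg adjusted p under 0.05), where 42% of 17925 genes tested were higher and 45.5% lower. *ATF3* was higher in Rh30 by 2.46 on the log2 scale (standard error 0.07), *EIF2AK3* by 1.16 (0.08), *DDIT4* by 1.14 (0.06) and *DDIT3* by 1.06 (0.06), while *CHAC1* was lower, with a log2 difference of -2.76 (0.17). *PPP1R15A* had a log2 difference of 0.05 (95% interval -0.05 to 0.16, adjusted p = 0.339), and *PPP1R15B*, called higher by 0.13, changed sign to -0.08 when counts were scaled by library totals in place of TMM, a scaling that shifted the median gene by -0.21.

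**Figure D1:**
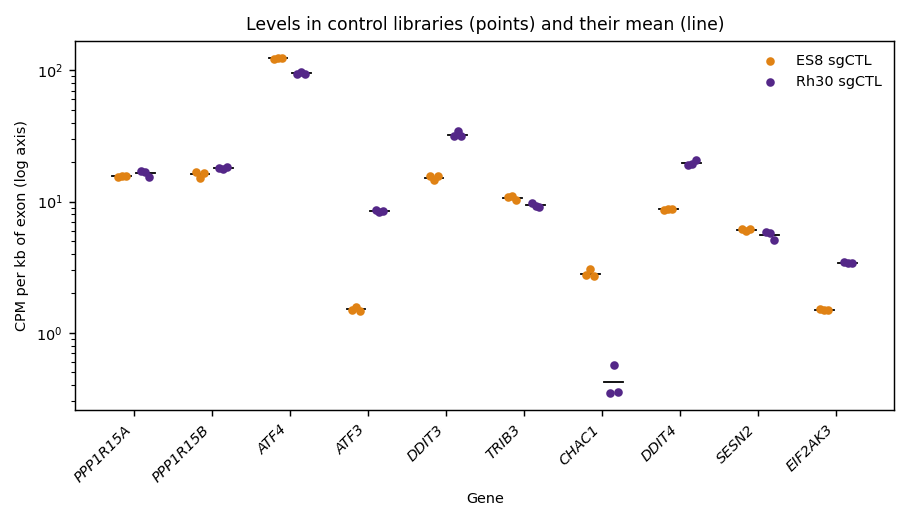
Levels of the 10 genes in control (sgCTL) libraries, in CPM per kilobase of exon on a log axis, with 3 libraries per line as points (ES8 orange, Rh30 purple) and the group mean as a line. *ATF4* is highest in both lines (124 and 95.4 CPM per kilobase), and *CHAC1* and *ATF3* differ most between the lines.

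After knockdown in ES8, 7 of the 10 effectors rose and none fell at an adjusted p under 0.05, where 13.6% of 17143 genes tested rose and 13.8% fell. In Rh30, 5 of the 10 rose and 1 fell, where 16.1% of 15391 genes rose and 16.2% fell. *PPP1R15A*, *PPP1R15B*, *ATF4*, *ATF3* and *DDIT3*, which encode the phosphatase subunits and the transcription factors, were called up in each line's own comparison, and *DDIT4* was the gene called down in Rh30. With a fold change of at least 2 also required, *PPP1R15A* and *CHAC1* remained in ES8, where 1.66% of genes rose that far, and *PPP1R15A* remained in Rh30, where 0.767% did. The median log2 fold change of the 10 was 0.47 in ES8 and 0.24 in Rh30, beside -0.02 and 0.00 over all genes tested. With library totals in place of TMM, 7 rose and 0 fell in ES8 and 4 rose and 1 fell in Rh30 (*ATF3* lost), while the higher share of all calls in ES8 was 39.3% instead of 49.7%, and in Rh30 34.8% instead of 49.7%. Without ES8 knockdown replicate A, 7 genes were called up and 0 down, and without Rh30 knockdown replicate A, 5 up and 1 down.

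The first group of effectors closes the response. *PPP1R15A*, the phosphatase subunit that is itself induced by stress, lies on chromosome 19 of GRCh38 from 48872392 to 48876057. It measured 47.7, 48.2 and 48.2 CPM in ES8 sgCTL libraries, 102, 98.6 and 105 CPM after knockdown and 53.02, 61.2 and 55.7 CPM in ΔRRM cells. In Rh30 it measured 52.4, 52.3 and 47.8 CPM with sgCTL, 142, 132 and 130.4 CPM after knockdown and 61.7, 59.8 and 54.1 CPM in ΔRRM cells. In both lines every knockdown library was above every other library of the line, and the ΔRRM libraries lay just above the sgCTL libraries with no overlap. The log2 fold change after knockdown was 1.06 in ES8 (standard error 0.06, edgeR adjusted p = 2.36e-05) and 1.42 in Rh30 (0.06, adjusted p = 3.21e-08). ΔRRM cells were below knockdown cells by a log2 difference of -0.83 in ES8 (adjusted p = 0.000493) and -1.19 in Rh30 (adjusted p = 2.26e-23). Against sgCTL the ΔRRM difference was 0.23 in ES8 (95% interval 0.08 to 0.38, adjusted p = 0.257) and 0.24 in Rh30 (0.11 to 0.37, adjusted p = 0.00103). The Rh30 value was 0.01 (adjusted p = 0.947) with library totals in place of TMM, which shifted the median gene of that comparison by -0.23.

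*PPP1R15B*, on chromosome 1 from 204403387 to 204411791, encodes the constitutive phosphatase subunit. The ES8 libraries held 87.4, 79.3 and 86.7 CPM with sgCTL, 103, 112 and 115 CPM after knockdown and 95.2, 73.8 and 84.8 CPM in ΔRRM cells. Knockdown libraries were all above the other ES8 libraries, and the ΔRRM libraries spanned the sgCTL range. In Rh30 the values were 94.7, 93.2 and 95.3 CPM, then 119, 111 and 109 CPM, and 68.7, 67.2 and 65.2 CPM in ΔRRM cells, which were below all other libraries. The rise after knockdown was 0.36 on the log2 scale in ES8 (standard error 0.06, adjusted p = 0.00339) and 0.27 in Rh30 (0.06, adjusted p = 0.00325). In ΔRRM cells against sgCTL it had a log2 difference of -0.00 in ES8 (95% interval -0.19 to 0.18) and was lower in Rh30, at -0.46 (adjusted p = 2.22e-09), or -0.69 with library totals.

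Transcription factors of the response formed the second group. *ATF4*, the central activator, lies on chromosome 22 from 39519695 to 39522685. With sgCTL it measured 308, 315 and 311 CPM in ES8, against 549, 500.2 and 511 CPM after knockdown and 316, 376 and 355 CPM in ΔRRM cells. The Rh30 libraries held 238, 245 and 236 CPM with sgCTL, 330, 355 and 351 CPM after knockdown and 312, 306 and 299 CPM in ΔRRM cells. Knockdown libraries were the highest of their line in each case, and in both lines the ΔRRM libraries lay between them and sgCTL. The log2 fold change after knockdown was 0.72 in ES8 (standard error 0.05, adjusted p = 9.34e-05) and 0.54 in Rh30 (0.06, adjusted p = 4.50e-05). ΔRRM cells were lower than knockdown cells in ES8, by a log2 difference of -0.55 (adjusted p = 0.00292), and had a difference of -0.17 in Rh30 (95% interval -0.32 to -0.01, adjusted p = 0.0556). That Rh30 difference was called with library totals (-0.33, adjusted p = 7.79e-05), by DESeq2 (adjusted p = 0.034), with at least 10 counts in every library (adjusted p = 0.049), with all 18 libraries in 1 fit (adjusted p = 0.0293) and without knockdown replicate A (-0.21, adjusted p = 0.0064). Against sgCTL, *ATF4* in ΔRRM cells was higher in Rh30, at 0.39 (adjusted p = 1.12e-07), or 0.15 with library totals (adjusted p = 0.0201). In ES8 that difference was 0.16 (adjusted p = 0.345).

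*ATF3*, on chromosome 1 from 212565334 to 212620777, encodes a stress-induced factor of the ATF and CREB family that also represses transcription. In ES8 it was low, at 6.01, 6.33 and 5.93 CPM with sgCTL, 8.12, 8.82 and 8.32 CPM after knockdown and 5.75, 7.99 and 6.005 CPM in ΔRRM cells, of which only replicate B, the library that stands apart, exceeded the sgCTL range. Rh30 held 34.5, 33.5 and 34.0 CPM with sgCTL, 37.3, 39.1 and 39.4 CPM after knockdown and 53.1, 53.4 and 54.2 CPM in ΔRRM cells. Thus the ΔRRM libraries were lower than knockdown libraries in ES8 and were the highest of all in Rh30. The log2 fold change after knockdown was 0.44 in ES8 (standard error 0.09, adjusted p = 0.00687) and 0.20 in Rh30 (0.06, adjusted p = 0.0307). The Rh30 call was lost without any sgCTL replicate and without knockdown replicate B or C, with adjusted p of 0.0729, 0.114 and 0.0936 (sgCTL A, B and C), 0.112 and 0.0717. In Rh30 ΔRRM cells *ATF3* was above sgCTL by 0.69 (adjusted p = 3.39e-14) and above knockdown by 0.48 (adjusted p = 3.77e-07), or 0.46 and 0.32 with library totals.

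*DDIT3*, on chromosome 12 from 57516588 to 57520517, encodes CHOP, a factor that promotes cell death under lasting stress. The ES8 values were 19.7, 18.5 and 19.7 CPM with sgCTL, 26.1, 29.5 and 28.5 CPM after knockdown and 19.3, 26.1 and 20.5 CPM in ΔRRM cells, the middle value again being replicate B. In Rh30 *DDIT3* held 39.7, 43.7 and 39.7 CPM, then 53.03, 58.3 and 60.3 CPM after knockdown and 66.3, 65.8 and 68.1 CPM in ΔRRM cells. The 3 Rh30 groups did not overlap and rose in that order. The changes after knockdown were 0.52 in ES8 (standard error 0.08, adjusted p = 0.00159) and 0.49 in Rh30 (0.07, adjusted p = 0.000332) on the log2 scale. Rh30 ΔRRM cells were above sgCTL by 0.74 (adjusted p = 2.30e-15) and above knockdown by 0.23 (adjusted p = 0.0104), the latter not called without knockdown replicate A (0.0642) or ΔRRM replicate C (adjusted p = 0.0579), and 0.07 with library totals. *DDIT3* shares 355 of its 1266 exonic bases (28.0%) with *MARS1*, the methionyl-tRNA synthetase gene on the opposite strand, and the strand setting of the counting was not given in the sources used here. *MARS1* had log2 fold changes of -0.10 after knockdown in each line (adjusted p = 0.232 in ES8 and 0.212 in Rh30) and was higher in Rh30 than in ES8 control cells by 2.02 on the log2 scale (adjusted p = 7.21e-35).

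**Figure D2:**
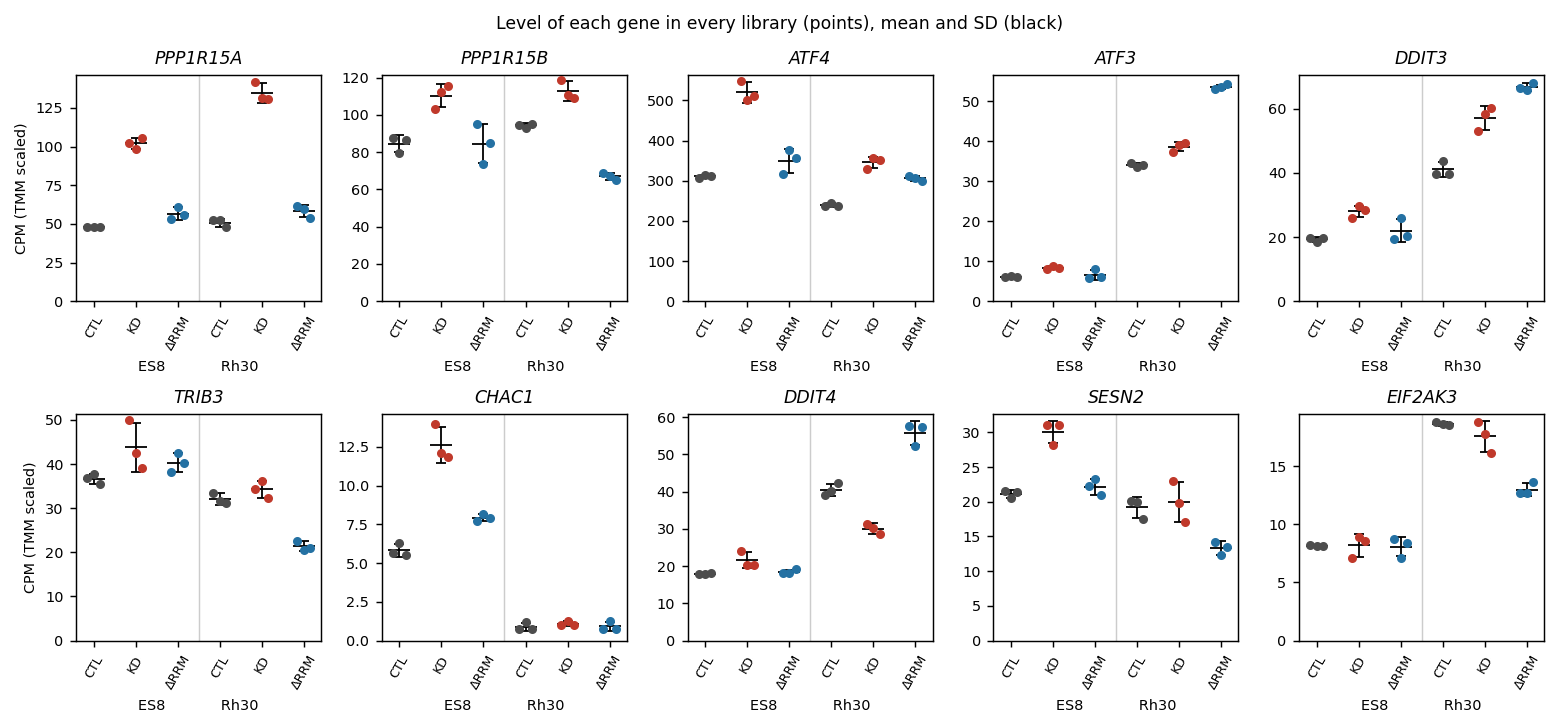
Level of each gene in all 18 libraries in CPM after TMM scaling, with linear axes from 0, points for the 3 replicates of each group (CTL, sgCTL; KD, sgDNAJC17; ΔRRM, ΔRRM cells with sgDNAJC17) and black bars for the mean and SD. *PPP1R15A* is highest in knockdown libraries of both lines, *ATF3* and *DDIT3* are highest in Rh30 ΔRRM libraries, and *CHAC1* stays at or under 1.28 CPM throughout Rh30.

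The third group holds downstream targets. *CHAC1*, on chromosome 15 from 40952962 to 40956519, encodes an enzyme that degrades glutathione. It measured 5.63, 6.30 and 5.54 CPM in ES8 sgCTL, 13.96, 12.1 and 11.8 CPM after knockdown and 7.71, 8.14 and 7.93 CPM in ΔRRM cells, in 3 separate ranges. The log2 fold change after ES8 knockdown was 1.09 (standard error 0.11, adjusted p = 0.000243), and ΔRRM cells were below knockdown by a log2 difference of -0.65 (adjusted p = 0.00469). Against ES8 sgCTL the ΔRRM difference was 0.44 (95% interval 0.23 to 0.65, unadjusted p = 0.000675, adjusted p = 0.123). In Rh30 its libraries held only 0.71, 1.17 and 0.73 CPM with sgCTL, 0.98, 1.28 and 0.99 CPM after knockdown and 0.74, 1.28 and 0.72 CPM in ΔRRM cells, or 21 to 51 counts. The log2 change after Rh30 knockdown was 0.32 (95% interval -0.24 to 0.88, adjusted p = 0.377). It ran from 0.19 (without knockdown replicate B) to 0.60 (without sgCTL replicate B) when a library was left out. The Rh30 interval overlaps that of ES8 (0.86 to 1.33), and the difference between the lines was not called (edgeR adjusted p = 0.0703).

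*TRIB3*, on chromosome 20 from 362835 to 397559, encodes a pseudokinase that restrains ATF4 and AKT. With sgCTL, knockdown and ΔRRM in turn, ES8 held 37.0, 37.7 and 35.5 CPM, 49.9, 42.5 and 39.1 CPM, and 38.2, 42.6 and 40.2 CPM. The Rh30 libraries gave 33.5, 31.6 and 31.1 CPM, 34.4, 36.1 and 32.3 CPM, and 22.6, 20.5 and 20.9 CPM. In ES8 the sgCTL libraries lay below all knockdown and ΔRRM libraries, and in Rh30 the ΔRRM libraries lay below all others. The knockdown changes were 0.23 in ES8 (95% interval 0.03 to 0.44, adjusted p = 0.0887) and 0.11 in Rh30 (-0.04 to 0.26, adjusted p = 0.246), neither called. The ES8 change was 0.13, still not called, without knockdown replicate A, the library that stands apart, and it was called without knockdown replicate C (0.31, adjusted p = 0.0373) and with all 18 libraries in 1 fit (0.26, adjusted p = 0.0262). The Rh30 change was 0.05 with library totals and 0.07 without knockdown replicate B. In Rh30 ΔRRM cells *TRIB3* was below sgCTL by a log2 difference of -0.55 (adjusted p = 1.92e-09) and below knockdown by -0.67 (adjusted p = 3.10e-10).

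*DDIT4*, on chromosome 10 from 72273920 to 72276036, encodes REDD1, an inhibitor of mTORC1 signalling. In ES8 it measured 17.9, 17.97 and 18.1 CPM with sgCTL, 24.1, 20.4 and 20.4 CPM after knockdown and 18.2, 18.2 and 19.1 CPM in ΔRRM cells. In Rh30 the order was different, with 39.1, 40.1 and 42.3 CPM with sgCTL, 31.3, 30.3 and 28.6 CPM after knockdown and 57.7, 52.2 and 57.4 CPM in ΔRRM cells. The Rh30 groups did not overlap, knockdown being lowest and ΔRRM highest. The log2 fold change after knockdown was 0.24 in ES8 (95% interval 0.04 to 0.44, adjusted p = 0.0681) and -0.41 in Rh30 (-0.56 to -0.27, adjusted p = 0.000537). The ES8 value was 0.15, still not called, without knockdown replicate A, the highest library and the one that stands apart, and was called with all 18 libraries in 1 fit (0.26, adjusted p = 0.0182). Rh30 ΔRRM cells were above sgCTL by 0.50 (adjusted p = 1.68e-09, or 0.26 with library totals) and above knockdown by 0.90 (adjusted p = 4.59e-16). An antisense gene without a symbol shares 847 of the exonic bases of *DDIT4* (41.2%) and was listed at 0 counts in all libraries.

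*SESN2*, on chromosome 1 from 28259527 to 28282491, encodes Sestrin 2, a leucine sensor that also restrains mTORC1. ES8 held 21.5, 20.5 and 21.4 CPM with sgCTL, 31.0, 28.2 and 31.0 CPM after knockdown and 22.3, 23.3 and 20.9 CPM in ΔRRM cells. Rh30 held 20.1, 19.97 and 17.5 CPM, then 23.0, 19.9 and 17.1 CPM, and 14.3, 12.3 and 13.5 CPM in ΔRRM cells. Thus knockdown libraries were highest in ES8 and spanned the sgCTL range in Rh30, where the ΔRRM libraries were lowest. It rose by 0.49 on the log2 scale after knockdown in ES8 (standard error 0.07, adjusted p = 0.00163) and had a change of 0.07 in Rh30 (95% interval -0.14 to 0.28, adjusted p = 0.608). Rh30 ΔRRM cells were below sgCTL by a log2 difference of -0.49 (adjusted p = 1.17e-06) and below knockdown by -0.57 (adjusted p = 6.98e-07).

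The kinase gene was not called after knockdown in either line. *EIF2AK3*, on chromosome 2 from 88556741 to 88627576, measured 8.24, 8.11 and 8.18 CPM in ES8 sgCTL, 7.08, 8.95 and 8.58 CPM after knockdown and 8.73, 7.14 and 8.38 CPM in ΔRRM cells, in overlapping ranges. In Rh30 it held 18.8, 18.6 and 18.5 CPM with sgCTL, 18.8, 17.7 and 16.1 CPM after knockdown and 12.7, 12.7 and 13.6 CPM in ΔRRM cells, which were lowest. The knockdown changes were -0.02 in ES8 (95% interval -0.25 to 0.22, adjusted p = 0.924) and -0.07 in Rh30 (-0.24 to 0.09, adjusted p = 0.524). Rh30 ΔRRM cells were below sgCTL by a log2 difference of -0.49 (adjusted p = 7.54e-07). Other genes overlap 15.1% of its exonic bases, which are shared with a gene without a symbol (0 to 7 counts per library) and with *EIF2AK3-DT* (4 to 51 counts).

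Considered over the 10 genes, ES8 ΔRRM cells had 0 calls against sgCTL by edgeR and 0 by DESeq2, with 3 genes (*CHAC1*, *PPP1R15A* and *ATF4*) at an unadjusted p under 0.05, where 0.174% of 17199 genes were called. Without ES8 ΔRRM replicate A these 3 genes were called up, at log2 differences of 0.46, 0.28 and 0.23 (adjusted p = 0.0476, 0.0481 and 0.0481). Against ES8 knockdown, 5 genes were lower in ΔRRM cells (*PPP1R15A*, *CHAC1*, *ATF4*, *SESN2* and *PPP1R15B*) and 0 higher, where 7.36% of 17099 genes were lower and 7.35% higher. *SESN2* at -0.42 (adjusted p = 0.0177) and *PPP1R15B* at -0.36 (adjusted p = 0.0351) were the least firm of these. *SESN2* was not called without knockdown replicate C (adjusted p = 0.08), ΔRRM replicate A (0.0517) or ΔRRM replicate C (0.101). *PPP1R15B* was not called without knockdown replicate B (adjusted p = 0.106) or C (0.12), or ΔRRM replicate B (0.0829) or C (0.111). Without ΔRRM replicate B, the library that stands apart, *ATF3* and *DDIT3* were called lower as well, at -0.49 and -0.47 (adjusted p = 0.0345 and 0.0266), and 6 genes were called in all.

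In Rh30 ΔRRM cells the effectors split. Against sgCTL, *PPP1R15A*, *ATF4*, *ATF3*, *DDIT3* and *DDIT4* were higher and *PPP1R15B*, *TRIB3*, *SESN2* and *EIF2AK3* were lower, 9 of 10 genes, where 33.8% of 15442 genes tested were higher and 35% lower. Against knockdown, 3 were higher (*DDIT4*, *ATF3* and *DDIT3*) and 5 lower, where 29.4% of 15309 genes were higher and 30.5% lower. Most genes were called in these comparisons, so a call there does not set an effector apart. Both comparisons in a line share the ΔRRM libraries, and the knockdown and ΔRRM comparisons with sgCTL share the control libraries, so their values are given side by side and not as independent results. With library totals in place of TMM, the share of called genes that were higher moved from 49.1% to 33.2% against sgCTL and from 49.1% to 34.1% against knockdown, and the effectors were 4 higher and 4 lower, and 2 higher and 6 lower.

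**Figure D3:**
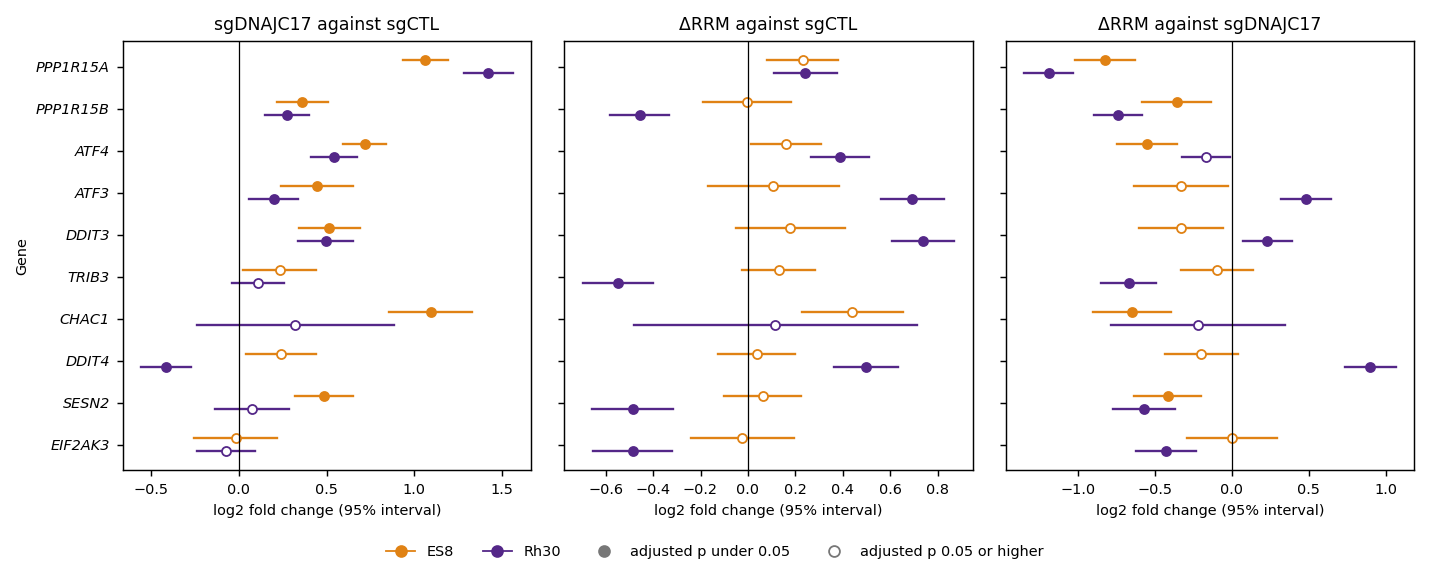
Log2 fold change (points) with 95% interval (lines) of each gene in ES8 (orange) and Rh30 (purple), for knockdown against sgCTL, ΔRRM against sgCTL and ΔRRM against knockdown, each panel with its own axis, with filled points at an adjusted p under 0.05. After knockdown *DDIT4* in Rh30 is the only filled point left of 0, and in the middle panel the 10 ES8 points are open while 9 Rh30 points are filled on both sides of 0.

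Whether a change differed between the lines was tested as the interaction of line with group. For knockdown, 2 of the 10 genes were called, where 9.78% of 18899 genes were: *PPP1R15A* rose more in Rh30, by 0.38 on the log2 scale (standard error 0.09, adjusted p = 0.0136), and *DDIT4* differed by -0.63 (0.12, adjusted p = 0.00262), its change being lower in Rh30. The *PPP1R15A* call was lost without Rh30 sgCTL replicate A (0.35, adjusted p = 0.0518). *DNAJC17* itself was called in this test, at 0.68 (standard error 0.18, adjusted p = 0.0199). Its log2 change after knockdown was -2.84 in ES8 and -2.19 in Rh30, a smaller fall. The part of this in the effector differences was not tested. The differences of *CHAC1* (-0.75, 95% interval -1.29 to -0.21, adjusted p = 0.0703) and *SESN2* (-0.39, -0.67 to -0.11, adjusted p = 0.0727) were not called. They were called by DESeq2 (adjusted p = 0.0283 and 0.0348), *CHAC1* also without Rh30 sgCTL replicate A (-0.93, adjusted p = 0.0485) though not without Rh30 sgCTL replicate B (-0.47), and *SESN2* without Rh30 knockdown replicate A (-0.48, adjusted p = 0.0188). For ΔRRM against sgCTL, 8 of 10 genes were called, where 41.4% of 18854 genes were, with *TRIB3* at -0.68, *SESN2* at -0.55 and *ATF3* at 0.59 (Rh30 minus ES8) among those furthest from 0. With library totals *ATF3* was at 0.37, and *ATF4*, called at 0.23, was at 0.01 (adjusted p = 0.949). With library totals the share of all calls that were higher moved from 53.5% to 37.3% in the first interaction and from 48.2% to 30.3% in the second.

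Other genes of the pathway were described by lists, with counts called up and down after knockdown. They stand beside 13.6% of all genes up and 13.8% down in ES8, and 16.1% up and 16.2% down in Rh30, and the genes named are among the 3 of smallest p in their list. Of 21 genes for sensing and initiation (other eIF2 kinases, eIF2 and eIF2B subunits and phosphatase catalytic subunits), 1 rose and 5 fell of 20 tested in ES8, while 8 rose and 1 fell of 21 in Rh30. *GCN1* and *EIF2AK4*, which encode the activator and the kinase of the amino acid branch, fell in ES8 by log2 changes of -0.39 and -0.33 (adjusted p = 0.00217 and 0.00265). Their Rh30 means were also lower after knockdown than with sgCTL. *GCN1* held 176 ± 29.3 against 248 ± 21.6 CPM and *EIF2AK4* 108 ± 7.16 against 119 ± 1.29 CPM (SD, n = 3). Only 1 gene of the list was called lower in Rh30, so these differences were not both called. In Rh30 *EIF2S1* and *EIF2S3*, which encode eIF2 subunits, rose by 0.47 and 0.43 (adjusted p = 0.000221 and 0.000345). Of the 7 paralogs of the effectors, 1 rose and 0 fell of 7 tested in ES8 (*JDP2*, 0.25, adjusted p = 0.0367) and 1 rose and 3 fell of 5 tested in Rh30, with *TRIB2* at -1.36 (adjusted p = 0.000175). *TRIB2* was low in Rh30, at means of 2.55 CPM with sgCTL and 0.98 CPM after knockdown. Of 15 other partners and targets of ATF4, 3 rose and 1 fell of 14 tested in ES8, among them *NFE2L1* at 0.46 and *KLHL24* at 0.79 (adjusted p = 0.000365 and 0.00291), and 5 rose and 0 fell of 15 in Rh30, among them *CEBPB* at 0.34, *CEBPG* at 0.25 and *NUPR1* at 0.69 (adjusted p = 0.00445, 0.00893 and 0.0161). *NUPR1* was low in Rh30, at means of 1.15 CPM with sgCTL and 1.85 CPM after knockdown.

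Of 19 ATF4 targets for amino acid synthesis and transport, 1 rose and 1 fell in ES8, while 7 rose and 0 fell of 17 tested in Rh30. *SLC3A2*, the heavy chain of amino acid transporters, rose by 0.46 in ES8 (adjusted p = 0.000813) and by 0.58 in Rh30 (adjusted p = 5.06e-05), and *ASNS*, asparagine synthetase, rose by 0.45 in Rh30 (adjusted p = 0.00146). Among 19 genes for ER chaperones and the unfolded protein response, 4 rose and 0 fell in ES8 and 6 rose and 1 fell in Rh30. *HERPUD1*, *XBP1* and *HSPA5*, which act in ER quality control, rose by 0.65, 0.50 and 0.34 in ES8 (adjusted p = 0.000597, 0.00061 and 0.00104), and *XBP1* rose by 0.30 in Rh30 (adjusted p = 0.00251). Of the p53 targets, 3 rose and 3 fell of 15 in ES8 and 1 rose and 3 fell of 14 in Rh30, counts near the shares over all genes, with *CDKN1A*, the cell cycle inhibitor, at -0.37 (adjusted p = 0.000524). Heat shock genes gave 3 up and 2 down of 11 in ES8 and 8 up and 1 down of 11 in Rh30, with the co-chaperone gene *BAG3* at 0.40 (adjusted p = 0.000606). Immediate early genes gave 3 up and 0 down of 11 in ES8, with *FOSB* at 1.90 (adjusted p = 0.00164), and 4 up and 0 down of 11 in Rh30, with *FOSL1* at 0.73 (adjusted p = 1.01e-05). *FOSB* was low, at means of 0.29 CPM in ES8 sgCTL and 1.11 CPM after knockdown. The list medians in ES8 lay between -0.12 and 0.22, beside 0.47 for the effectors, and in Rh30 between -0.26 and 0.30, beside 0.24.

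**Figure D4:**
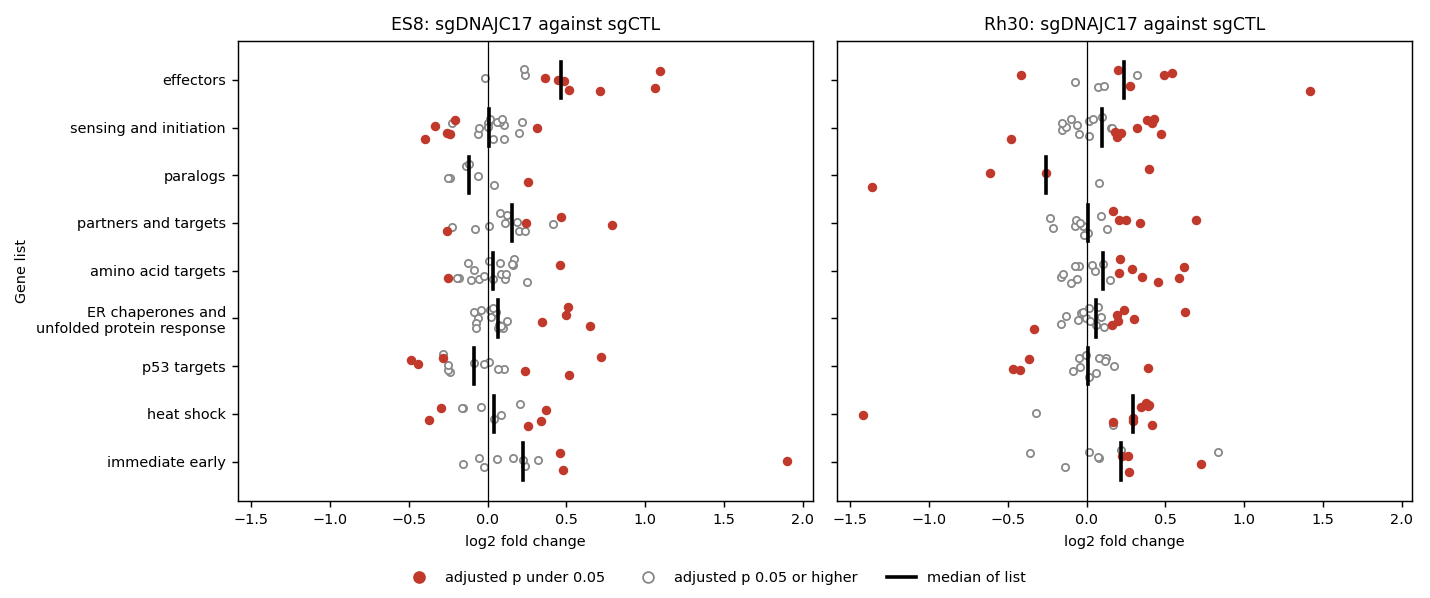
Log2 fold change after knockdown of every tested gene in the effector list and 8 other lists, in ES8 (left) and Rh30 (right), with filled points at an adjusted p under 0.05 and a black bar at the median of each list. The effector median is the rightmost bar in ES8 (0.47), while in Rh30 the heat shock median (0.30) lies to the right of it (0.24).

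In ES8 ΔRRM cells 0 genes of any of these 8 lists were called against sgCTL by edgeR, where 0.174% of 17199 genes tested were called. A count of 0 therefore does not set these lists apart. *JUN* of the immediate early list had an unadjusted p of 0.000375 (adjusted p = 0.0979). In Rh30, where 33.8% of all genes were higher and 35% lower, the counts up and down were 13 and 5 of 21 for sensing and initiation, 4 and 1 of 5 for paralogs, 2 and 9 of 15 for partners and targets, 6 and 8 of 17 for amino acid targets, 6 and 9 of 19 for ER genes, 5 and 4 of 14 for p53 targets, 6 and 3 of 11 for heat shock genes and 1 and 8 of 11 for immediate early genes. Among them *CHAC2*, the paralog of *CHAC1*, was higher by 1.13 (adjusted p = 1.10e-20), and *SLC7A5*, a leucine transporter, was lower at -1.01 (adjusted p = 1.41e-21).

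Likeness of pattern was described by the root mean square distance between genes over the 4 log2 differences from sgCTL (knockdown and ΔRRM, each line), as a description with no test. Among 13840 genes, those nearest to *PPP1R15A* were *RSRP1* (distance 0.13), *SNHG17* (0.20), *SNORA65* (0.21), a gene without a symbol (0.21) and *BIRC3* (0.22). Its nearest effector was *ATF4*, at 0.48. Within the 10, the closest pairs were *PPP1R15B* and *SESN2* (0.13), *TRIB3* and *PPP1R15B* (0.13) and *ATF3* and *DDIT3* (0.16).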

How the data were processed

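Polyadenylated RNA of 18 libraries was analysed, 3 in each of 6 groups. The authors deposited whole-number read counts per gene for each library, without normalization. The submitters' processing notes name Trimmomatic 0.36, STAR 2.5.2b, featureCounts, Subread 1.5.2 and GRCh38, whose positions the files match, whereas the methods name an older build. Strand setting was not given in the sources used here. Symbols came from reference tables (40373 of 57500 genes).

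Tests used edgeR 4.0.16 under R 4.3.3 (TMM, filterByExpr, quasi-likelihood test) between the groups of each comparison, and p-values were adjusted over all genes by the Benjamini-Hochberg method. Genes were called at an adjusted p under 0.05, and a second count required a fold change of 2. CPM came from TMM over all 18 libraries. The test was tried on simulated data. The 10 effectors and the lists were chosen with earlier results of these data known. Other genes were named by rule, at most the 3 of smallest p per list and comparison, with genes overlapping an effector, 5 nearest neighbours of *PPP1R15A* and cell type markers.

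Alternatives were DESeq2 1.42.0, its size factors in edgeR, library totals, other filters on low counts (none, or at least 10 in every library), an adjusted p under 0.01, a single fit of all 18 libraries, a block for the replicate letter, and the omission of each library. Over genes with a mean count of at least 100, same-letter libraries deviated together in Rh30 knockdown (correlations 0.576, 0.287 and 0.348), and in no other comparison did every letter pass 0.1. Libraries of different letters were not correlated, and neither labels nor methods state a pairing, so whether the letters pair libraries is not known. The main tests were unpaired, and with the replicate block the Rh30 knockdown calls stayed at 5 up and 1 down. No columns were left unmapped. Python 3.11.15, pandas 2.3.3, numpy 2.4.6 and matplotlib 3.10.9 were also used.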

Additional observations from a re-analysis of the deposited data

Results flagged for a closer look

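Differences between the lines were flagged where the interaction of line with group passed an adjusted p of 0.05 in edgeR. All are Rh30 minus ES8 on the log2 scale.

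After knockdown, *PPP1R15A* differed by 0.38 (adjusted p = 0.0136) and *DDIT4* by -0.63 (adjusted p = 0.00262). The fall of *DNAJC17* itself also differed, by 0.68 (adjusted p = 0.0199), being smaller in Rh30. *DDIT4* was higher after knockdown in 3 of 3 ES8 libraries and lower in 3 of 3 Rh30 libraries than every sgCTL library of the line. Within ES8 the change was not called (0.24, edgeR adjusted p = 0.0681) and was 0.15 without knockdown replicate A. Within Rh30 it was called (-0.41, edgeR adjusted p = 0.000537).

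In ΔRRM cells against sgCTL, *PPP1R15B* differed by -0.45 (adjusted p = 0.000987), *TRIB3* by -0.68 (adjusted p = 7.92e-06), *SESN2* by -0.55 (adjusted p = 0.000466) and *EIF2AK3* by -0.46 (adjusted p = 0.00501). In the other direction, *ATF3* differed by 0.59 (adjusted p = 0.000927), *DDIT3* by 0.56 (adjusted p = 0.000647), *DDIT4* by 0.46 (adjusted p = 0.000525) and *ATF4* by 0.23 (adjusted p = 0.0383). The *ATF4* value was the weakest, at an adjusted p between 0.0173 and 0.949 over the alternatives that keep all libraries. Groups had 3 libraries each, too few for the search for single outlying libraries.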

How the results depend on the processing

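Over the 54 calls of the effectors in the 9 comparisons, DESeq2 and its size factors in edgeR each kept 53, the filter of at least 10 counts 53, no filter 52, the replicate block 52, all 18 libraries in 1 fit 50, library totals 48 and an adjusted p under 0.01 46. Leaving out a library kept 355 of 384, with no change of sign among calls. Several changes are fewer samples or a stricter threshold, and otherwise the cause was not tested. *CHAC1* in Rh30 rests on 21 to 51 counts per library.

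Counts of calls moved by over 1.5 times as follows. With no filter on low counts, 1 gene (*CHAC1*, up) was called in ES8 ΔRRM against sgCTL and 4 in the knockdown interaction, 3 of them lower. Against ES8 knockdown, 3 genes were lower in ΔRRM cells at an adjusted p under 0.01 and 3 with the replicate block. Same-letter libraries did not deviate together in that comparison, and with the block *SESN2* and *PPP1R15B* had an adjusted p of 0.0798 and 0.0866. The block gave 2 lower calls in the knockdown interaction (*SESN2* added, adjusted p = 0.0312) and changed no other call. In that interaction an adjusted p under 0.01 left 1 call and 0 higher, DESeq2 gave 4 calls, 3 of them lower, and all 18 libraries in 1 fit gave 2 lower. With library totals, 2 genes differed by at least 2-fold between the control cultures. Leaving out libraries gave 0 to 3 calls (0 to 3 up) in ES8 ΔRRM against sgCTL, 3 to 6 (3 to 6 down) in ES8 ΔRRM against knockdown, and 0 to 1 higher and 1 to 2 lower in the knockdown interaction.

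Among called values 1 changed sign, *PPP1R15B* between the control cultures (-0.0811 with library totals). That call was also lost with at least 10 counts (0.04), with all libraries in 1 fit (0.16) and without ES8 sgCTL replicate B (0.09, adjusted p = 0.114), and that of *SESN2* without ES8 sgCTL replicate A or C or Rh30 sgCTL replicate C (adjusted p = 0.0705, 0.055 and 0.218). The *ATF4* interaction in ΔRRM cells was lost on leaving out any single library other than ES8 ΔRRM replicate B or C, at 0.15 to 0.24, and that of *ATF3* in Rh30 knockdown also with library totals, no filter and all libraries in 1 fit (adjusted p = 0.13, 0.102 and 0.151). Uncalled values near 0 also changed sign. *EIF2AK3* in ES8 knockdown was 0.0059 with all libraries in 1 fit, and in ES8 ΔRRM against knockdown -0.0101 with DESeq2, -0.0101 with its size factors, -0.0038 with at least 10 counts and -0.0228 with all libraries in 1 fit. *PPP1R15B* in ES8 ΔRRM against sgCTL was 0.0023 in that fit. With library totals, *CHAC1* in Rh30 ΔRRM against sgCTL was -0.11 and *PPP1R15A* between control cultures -0.16 (-0.037 with at least 10 counts). *DDIT3* in the knockdown interaction was -0.0135 with DESeq2, -0.0132 with its size factors, -0.0362 with library totals, -0.0267 with no filter, -0.0123 with at least 10 counts and -0.0599 with all libraries in 1 fit. *PPP1R15A* in the ΔRRM interaction was -0.0136, -0.0137, -0.20 and -0.0322 with DESeq2, its size factors, library totals and all libraries in 1 fit.

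Leaving out a library gave these ranges for other uncalled values that changed sign: in ES8 knockdown *EIF2AK3* -0.0850 to 0.0731, in Rh30 knockdown *SESN2* -0.0316 to 0.17, in ES8 ΔRRM against sgCTL *PPP1R15B* -0.0950 to 0.0862, *ATF3* -0.0547 to 0.20 and *EIF2AK3* -0.0801 to 0.0604, in Rh30 ΔRRM against sgCTL *CHAC1* -0.22 to 0.39, in ES8 ΔRRM against knockdown *EIF2AK3* -0.0922 to 0.0845 and *TRIB3* -0.18 to 0.0073, in the knockdown interaction *DDIT3* -0.0809 to 0.0719, *TRIB3* -0.18 to 0.0266 and *EIF2AK3* -0.10 to 0.0312, and in the ΔRRM interaction *PPP1R15A* -0.0467 to 0.0613.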
